A study of Mus musculus with 4 samples.

Results

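*Gdnf*, *Gfra1*, *Ret*, *Etv5*, *Etv4*, *Dusp6*, *Lhx1* and *Bcl6b* are the ligand, the receptor genes and 5 target genes of glial cell line-derived neurotrophic factor (GDNF) signalling in the testis. They were chosen by symbol, and all 8 were found among the 30828 genes of both count matrices. None shares its strand with an overlapping gene in the GRCm38 annotation, the build of the gene positions given here. The values come from droplet single-cell RNA sequencing of testis cells of mice at postnatal day 8, sorted for the surface proteins CD9 and THY1. *Cnot3*-cKO mice were floxed at *Cnot3* on both chromosomes, and a Cre that acts only with tamoxifen (given as 4-hydroxytamoxifen) was driven in germ cells by the *Ddx4-creER* transgene. Control mice, called wild-type in the sample labels, were also floxed and also received tamoxifen, and lacked the transgene. By the labels, injections began on postnatal day 1 and ended on days 1 and 2 in control and 3 and 4 in *Cnot3*-cKO samples. The study's methods instead give daily injections from day 1 to day 3 for neonatal mice. If the labels hold, injection length and genotype cannot be told apart. The labels give 2 samples per genotype, but each genotype has 1 matrix in which both are merged, and whether they are separate cell suspensions or repeat runs of 1 library is not given in the sources used here, so 1 control library was compared with 1 *Cnot3*-cKO library. There was no replicate, so no p-value was computed, and each 95% interval covers counting error only.

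GDNF is secreted by Sertoli and other somatic cells of the testis. GFRA1 binds it on the surface of the most primitive spermatogonia and brings it to the receptor tyrosine kinase RET, which signals through ERK, AKT and SRC family kinases. The pathway is known for the self-renewal of spermatogonial stem cells, and the transcription factor genes *Etv5*, *Bcl6b* and *Lhx1* are known from cultured spermatogonia to respond to GDNF. *Etv4* and *Dusp6* follow ERK activity in many cell types.

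The promoters of 4 of the genes are shown because *Gfra1* had the highest ratio between the genotypes and *Etv5*, *Dusp6* and *Lhx1* are among its targets, with an ETS-type motif, the kind of site that ETV factors bind, looked for in each. Each sequence runs 5′ to 3′ on the gene's own strand from 250 bases before the start of transcription to 50 after it, from RefSeq on GRCm38.p6, and capitals mark the motif CGGAAG or its reverse complement CTTCCG. *Gfra1* lies at chr19:58455349-58455648 on the minus strand, *Etv5* at chr16:22439521-22439820 on the minus strand for the first of its listed starts, *Dusp6* at chr10:99262981-99263280 on the plus strand, and *Lhx1* at chr11:84525485-84525784 on the minus strand.
Gfra1: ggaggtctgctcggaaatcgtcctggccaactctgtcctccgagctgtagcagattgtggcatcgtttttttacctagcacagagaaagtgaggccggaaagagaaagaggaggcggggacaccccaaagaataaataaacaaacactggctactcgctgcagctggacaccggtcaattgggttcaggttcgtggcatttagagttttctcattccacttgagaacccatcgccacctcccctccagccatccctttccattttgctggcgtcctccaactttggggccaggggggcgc
Etv5: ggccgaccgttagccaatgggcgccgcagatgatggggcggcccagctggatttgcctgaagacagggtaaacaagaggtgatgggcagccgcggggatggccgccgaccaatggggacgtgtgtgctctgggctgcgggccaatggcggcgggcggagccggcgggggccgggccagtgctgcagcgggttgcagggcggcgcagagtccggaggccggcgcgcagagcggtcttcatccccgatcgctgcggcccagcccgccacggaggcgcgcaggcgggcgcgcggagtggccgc
Dusp6: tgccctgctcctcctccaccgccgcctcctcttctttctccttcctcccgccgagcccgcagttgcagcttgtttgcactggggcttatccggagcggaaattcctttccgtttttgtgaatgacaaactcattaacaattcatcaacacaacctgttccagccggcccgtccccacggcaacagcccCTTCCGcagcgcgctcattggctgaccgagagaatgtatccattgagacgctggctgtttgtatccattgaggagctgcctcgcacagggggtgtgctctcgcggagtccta
Lhx1: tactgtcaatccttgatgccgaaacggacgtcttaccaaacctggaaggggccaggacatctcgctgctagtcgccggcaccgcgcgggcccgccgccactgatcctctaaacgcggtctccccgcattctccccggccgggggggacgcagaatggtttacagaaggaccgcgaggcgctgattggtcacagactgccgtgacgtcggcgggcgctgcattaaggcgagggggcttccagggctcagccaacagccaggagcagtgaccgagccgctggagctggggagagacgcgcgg
Of these, only *Dusp6* held the motif, with 1 match. The second *Etv5* window held none, and of the *Gdnf* windows 1 held a match and 1 did not. Over the 32851 promoters of the same length, 16.9% held the motif on either strand. A match describes letters only. *Ret*, *Etv4* and *Bcl6b* had no entry in the promoter table.

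The deposited matrices held 181550221 and 168770743 unique molecular identifiers (UMIs, each standing for 1 captured RNA molecule) in the control and *Cnot3*-cKO libraries, and 8341 and 9336 barcodes were called as cells. Barcodes with at least 10 UMIs of the germ cell genes *Ddx4* and *Dazl* together were taken as germ barcodes, 1350 in control and 564 in *Cnot3*-cKO. Those with at most 2 were taken as somatic barcodes, 6933 and 8726. The sort fixes part of these numbers. The median depth was 42254.5 and 46014.5 UMIs in germ barcodes, and 13711 and 12937 in somatic barcodes. A list of 6 other germ cell markers summed to 1872 and 1695 UMIs per 1000000 (CPM) in germ barcodes against 31.6 and 28.6 in somatic barcodes. The libraries shared 18 called barcode sequences, against 11.5 for independent draws. *Cnot3* itself, a subunit of the CCR4-NOT deadenylase, stood in germ barcodes at 71.4 CPM for control and 39.8 CPM for *Cnot3*-cKO (log2 ratio -0.84, -0.94 to -0.75), and in somatic barcodes at 53.3 and 56.5 CPM. Whether the counted 3′ tags lie in the deleted part is not given in the sources used here, so this level is no measure of how many cells had lost the gene.

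In germ barcodes all 8 genes had a higher level in the *Cnot3*-cKO library, and 6 of them by 1.5-fold or more. Among the 13350 genes that reached 100 UMIs when germ barcodes of both libraries were summed, 6.42% were higher by that much and 3.35% lower. Of these genes 51.9% had a log2 ratio above 0, and their median was 0.01 against 0.80 for the 8 genes. The receptor *Gfra1* and the ERK phosphatase gene *Dusp6* were both more than 2-fold higher. These calls depended on which barcodes were kept. The filters the study states, which leave out barcodes over 10% mitochondrial UMIs and those far above the mean depth, left 236 and 65 germ barcodes with median depths of 32242.5 and 20635 UMIs. Under them 0 of the 6 genes that still reached 100 UMIs were past 1.5-fold. *Gfra1* (190 and 58 UMIs) had a log2 ratio of 0.58 (0.13 to 1.01) and *Dusp6* (186 and 48 UMIs) of 0.33 (-0.15 to 0.80). *Lhx1* and *Bcl6b* were lower in *Cnot3*-cKO at -0.14 (-0.85 to 0.51) and -0.54 (-1.54 to 0.34). *Gdnf*, at 1.29, rested on 10 and 5 UMIs. A sum over germ barcodes also cannot tell apart more cells of a kind and more RNA per cell.

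**Figure D1:**
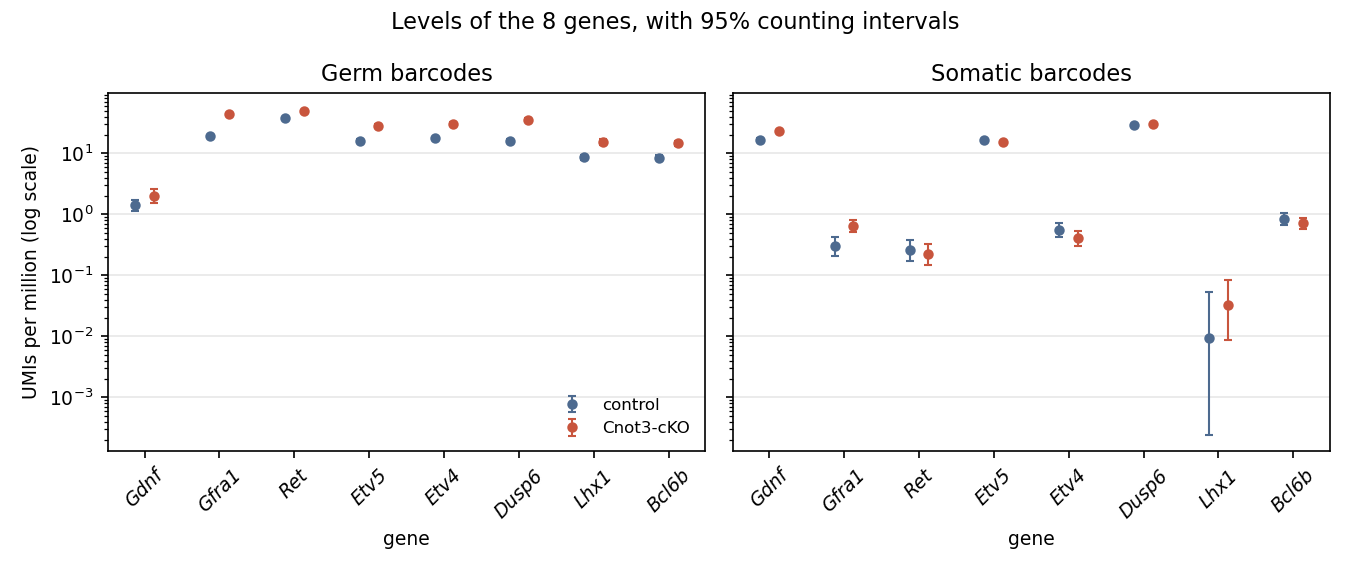
Levels of the 8 genes in UMIs per 1000000 on a log scale, in germ barcodes (left) and somatic barcodes (right), with the control library in blue and the *Cnot3*-cKO library in red; bars are 95% counting intervals. In germ barcodes every red point lies above the blue one, while in somatic barcodes *Lhx1*, seen with 1 and 4 UMIs, and *Gfra1*, *Ret*, *Etv4* and *Bcl6b* lie below 1 CPM.

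*Gdnf*, the ligand gene (chr15:7810846-7837575, plus strand), was counted mostly outside germ barcodes. In somatic barcodes it was at 16.8 CPM (16.1 to 17.6) in control and 23.4 CPM (22.6 to 24.3) in *Cnot3*-cKO. The log2 ratio was 0.48 (0.39 to 0.56), short of 1.5-fold. It fell below that interval in 2 alternatives, to 0.33 with at most 10% mitochondrial UMIs and 0.36 under the filters the study states. Of 14393 genes tested in somatic barcodes, 1.49% were higher by 1.5-fold and 1.8% lower.

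Somatic barcodes were split by marker genes. Sertoli-marker barcodes, which held at least 10 UMIs of Sertoli genes and 3 times those of any other list, numbered 2869 and 4313. In them *Gdnf* was at 22.9 CPM (21.4 to 24.4) in control and 31.6 CPM (30.2 to 33.1) in *Cnot3*-cKO, a log2 ratio of 0.47. In stroma-marker barcodes, 3014 and 3298, it was at 9.62 CPM (8.75 to 10.6) and 12.5 CPM (11.5 to 13.6), a log2 ratio of 0.38. *Gdnf* was thus higher in Sertoli-marker than in stroma-marker barcodes within each library, and higher in *Cnot3*-cKO in both kinds, and the intervals of the libraries did not overlap in either kind. At 1.5-fold, 1.12% of 12083 genes were higher and 1.07% lower in Sertoli-marker barcodes, and 0.835% of 12690 genes were higher and 0.977% lower in stroma-marker barcodes, and none of the 3 genes that reached 100 UMIs there (*Gdnf*, *Etv5* and *Dusp6*) was among them. Barcodes with at least 10 UMIs of peritubular myoid genes were also grouped. Their myoid UMIs outnumbered stromal ones and were at least 3 times the Sertoli ones. These 127 and 96 barcodes had *Gdnf* at 21.5 CPM (15.5 to 29.2) and 20.4 CPM (13.7 to 29.4), with overlapping intervals. Within a library, the interval overlapped that of Sertoli-marker barcodes in control, but lay below it in *Cnot3*-cKO. Stromal markers still summed to 5653 and 5638 CPM in this group, beside 8770 and 8857 CPM for myoid markers.

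The share of somatic barcodes with a *Gdnf* UMI, after each barcode was thinned to 10000 UMIs, was 13.6% (12.8 to 14.5) in control and 19.1% (18.3 to 20.1) in *Cnot3*-cKO, and 19.1% and 23.8% before thinning. In germ barcodes *Gdnf* had 81 and 53 UMIs in all, 1.41 and 2.02 CPM. The interval of that log2 ratio reached from -0.01 to 1.04. After thinning, 9 germ barcodes of 1330 and 9 of 559 held a *Gdnf* UMI, so no difference was read at this depth. The germ level lay below the 9.28 and 19.4 CPM of empty barcodes, those of at most 100 UMIs, which hold free RNA. With the empty-barcode profile subtracted, the germ log2 ratio of *Gdnf* was 0.10.

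*Gfra1* (chr19:58235604-58455909, minus strand) encodes the cell surface protein that binds GDNF. Its UMIs numbered 1089 in the control germ barcodes and 1145 in the fewer germ barcodes of *Cnot3*-cKO, which came to 19.0 CPM (17.8 to 20.1) and 43.7 CPM (41.2 to 46.3). The log2 ratio was 1.21 (1.08 to 1.33), the highest of the 8. The share of germ barcodes with a UMI was 31.2% and 53.2%, and 14.1% (12.2 to 16.04) and 27.0% (23.4 to 30.9) after thinning. In thinned somatic barcodes it was 0.237% and 0.474%, so the germ shares stood far above the somatic ones. Barcodes with 5 or more *Gfra1* UMIs made up 4.22% (3.21 to 5.44) of control and 17.02% (14.01 to 20.4) of *Cnot3*-cKO germ barcodes, while those with exactly 1 UMI made up 12.9% and 14.4%. The libraries thus lay further apart in the share with 5 or more *Gfra1* UMIs than in the share with exactly 1. These classes were not thinned, and germ barcodes were deeper in *Cnot3*-cKO, with a median of 46014.5 against 42254.5 UMIs.

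*Ret* (chr6:118151745-118197718, minus strand) encodes the signalling receptor. Germ barcodes held 2204 and 1290 of its UMIs, 38.4 CPM (36.8 to 40.01) in control and 49.3 CPM (46.6 to 52.03) in *Cnot3*-cKO. The log2 ratio of 0.36 (0.26 to 0.46) did not reach 1.5-fold, and its interval lay wholly below that of *Gfra1*. Thinned shares were 26.8% (24.5 to 29.3) and 31.3% (27.5 to 35.3), with overlapping intervals, against 51.1% and 59.4% before thinning. The thinned somatic shares were 0.253% and 0.197%. The receptor gene pair thus differed in how far apart the libraries were, with *Gfra1* past 1.5-fold and *Ret* not. With at most 10% mitochondrial UMIs the *Ret* ratio rose above its interval to 0.55, just short of 1.5-fold, and *Gfra1* was at 1.26. Under the filters the study states *Gfra1* was at 0.58 and *Ret* at 0.07, both short of it.

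**Figure D2:**
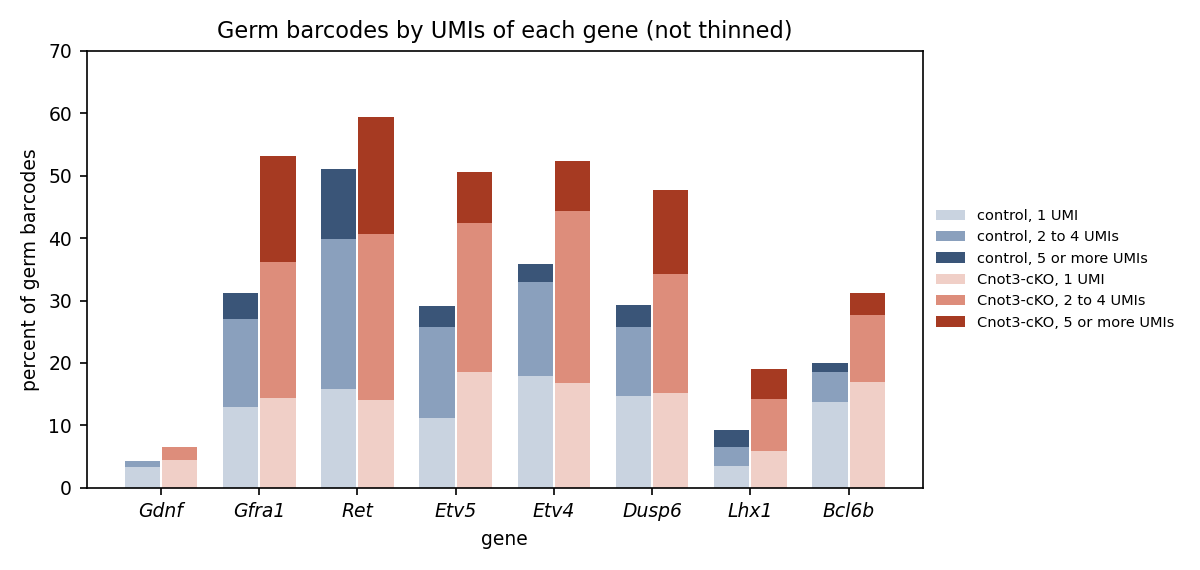
Percent of germ barcodes (vertical axis, not thinned) with 1, with 2 to 4, and with 5 or more UMIs of each gene, stacked from light to dark, for the control library in blue and the *Cnot3*-cKO library in red. The darkest part of the *Gfra1* bar is 4.22% in control and 17.02% in *Cnot3*-cKO, and that of the *Dusp6* bar 3.63% and 13.5%.

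Among the targets, *Dusp6* (chr10:99263231-99267489, plus strand), whose product switches ERK off and whose promoter is shown above, had the widest gap. It counted 935 UMIs in control and 942 in *Cnot3*-cKO germ barcodes, or 16.3 CPM (15.3 to 17.4) and 35.97 CPM (33.7 to 38.3). The log2 ratio was 1.14 (1.01 to 1.28). Thinned shares were 13.2% and 22.7%, and barcodes with 5 or more UMIs made up 3.63% and 13.5%. *Dusp6* was also well seen outside the germ line, with thinned somatic shares of 21.1% and 21.2%, so a germ share of this gene cannot be set against somatic barcodes as a background.

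*Etv5* (chr16:22381309-22439719) and *Etv4* (chr11:101769742-101785371), both on the minus strand, encode ETS transcription factors of 1 subfamily. *Etv5* was at 16.3 CPM (15.3 to 17.4) in control and 28.4 CPM (26.4 to 30.5) in *Cnot3*-cKO germ barcodes, a log2 ratio of 0.80 (0.66 to 0.94). *Etv4* was at 17.6 CPM (16.5 to 18.7) and 30.1 CPM (28.03 to 32.3), a log2 ratio of 0.77 (0.64 to 0.91). The intervals of these ratios overlapped for most of their length. Their thinned germ shares were 12.8% and 20.8% for *Etv5*, and 14.7% and 23.1% for *Etv4*. They parted in somatic barcodes, where *Etv5* had thinned shares of 14.4% and 13.4% and *Etv4* of 0.522% and 0.276%.

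*Lhx1* (chr11:84518284-84525535) and *Bcl6b* (chr11:70224128-70229798), both on the minus strand, encode a LIM homeobox factor and a BTB zinc finger repressor. *Lhx1* was at 8.58 CPM (7.84 to 9.38) in control and 15.5 CPM (13.997 to 17.05) in *Cnot3*-cKO germ barcodes, a log2 ratio of 0.85 (0.66 to 1.04). *Bcl6b* was at 8.48 CPM (7.74 to 9.27) and 14.7 CPM (13.2 to 16.2), a log2 ratio of 0.79 (0.59 to 0.99). *Lhx1* was found in few barcodes with several UMIs each, being seen in 9.19% and 18.97% of germ barcodes with a mean of 3.98 and 3.79 UMIs where seen. *Bcl6b* was seen in 270 control and 176 *Cnot3*-cKO germ barcodes, with means of 1.80 and 2.18. After thinning the shares were 4.36% (3.33 to 5.60) and 7.87% (5.78 to 10.4) for *Lhx1*, and 5.64% (4.46 to 7.02) and 11.3% (8.77 to 14.2) for *Bcl6b*. In all somatic barcodes together *Lhx1* had 1 UMI in control and 4 in *Cnot3*-cKO, the lowest background of the 8.

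The germ ratios were set against depth and cell mixtures. In germ barcodes of 20000 to 40000 UMIs, 487 in control and 160 in *Cnot3*-cKO, *Bcl6b* was lower in *Cnot3*-cKO with a log2 ratio of -0.21 (-0.68 to 0.23), whereas it was 1.06, 1.14 and 1.23 in the band below and the bands above. The *Gfra1* ratio was 1.36, 0.91, 1.41 and 1.52 from the shallowest to the deepest band, and *Dusp6* 0.87, 0.70, 1.30 and 1.43. The 7 genes other than *Gdnf* were all higher in *Cnot3*-cKO in every band but for *Bcl6b* in that one. Sertoli markers summed to 72.3 and 91.8 CPM in germ barcodes and stromal markers to 390 and 317, with all 5 markers of each list seen, and 147 and 58 germ barcodes held over 0.1% of their UMIs in Sertoli, myoid and stromal markers. Without those barcodes the same 6 genes were past 1.5-fold. The median mitochondrial share was 10.3% in control and 9.17% in *Cnot3*-cKO germ barcodes. With barcodes over 10% left out, 5 of these 6 stayed past 1.5-fold, and *Lhx1* stood at a log2 ratio of 0.43.

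Outside germ barcodes the 8 genes did not share a direction. Of the 8, 6 reached 100 UMIs in somatic barcodes, and among these only *Gfra1* was past 1.5-fold, at 0.306 CPM (32 UMIs) in control and 0.656 CPM (81 UMIs) in *Cnot3*-cKO, giving a log2 ratio of 1.10 (0.49 to 1.74). In empty barcodes *Gfra1* stood at 3.33 and 7.99 CPM, a log2 ratio of 1.26. With the empty-barcode profile subtracted, the somatic log2 ratio of *Gfra1* was 1.18. Beyond this subtraction the part of free RNA in the somatic difference was not tested. *Dusp6* was at 29.7 and 30.2 CPM in somatic barcodes, with an interval of the log2 ratio from -0.05 to 0.09 that lay below the germ ratio. *Etv5* was at 16.5 and 15.3 CPM, a log2 ratio of -0.11 (-0.20 to -0.01). In Sertoli-marker barcodes *Etv5* was at 10.7 and 8.48 CPM (log2 ratio -0.34, -0.52 to -0.15) and *Dusp6* at 52.4 and 46.5 CPM (-0.17, -0.25 to -0.09). In stroma-marker barcodes *Etv5* was at 19.3 and 21.2 CPM and *Dusp6* at 10.5 CPM in both libraries. Thus within each library *Dusp6* was higher in Sertoli-marker than in stroma-marker barcodes and *Etv5* was lower, without overlap of the intervals.

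Small groups carried high levels of single genes. In the 31 and 39 endothelial-marker barcodes *Bcl6b* was at 60.2 CPM (38.6 to 89.6) and 52.6 CPM (33.7 to 78.2), from 24 UMIs in each library, while all somatic barcodes together gave 0.841 and 0.713 CPM. In the 29 and 49 macrophage-marker barcodes *Dusp6* was at 105 CPM (80.03 to 136) and 145 CPM (121 to 172). These groups were too small to compare the libraries, since their intervals overlapped.

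**Figure D3:**
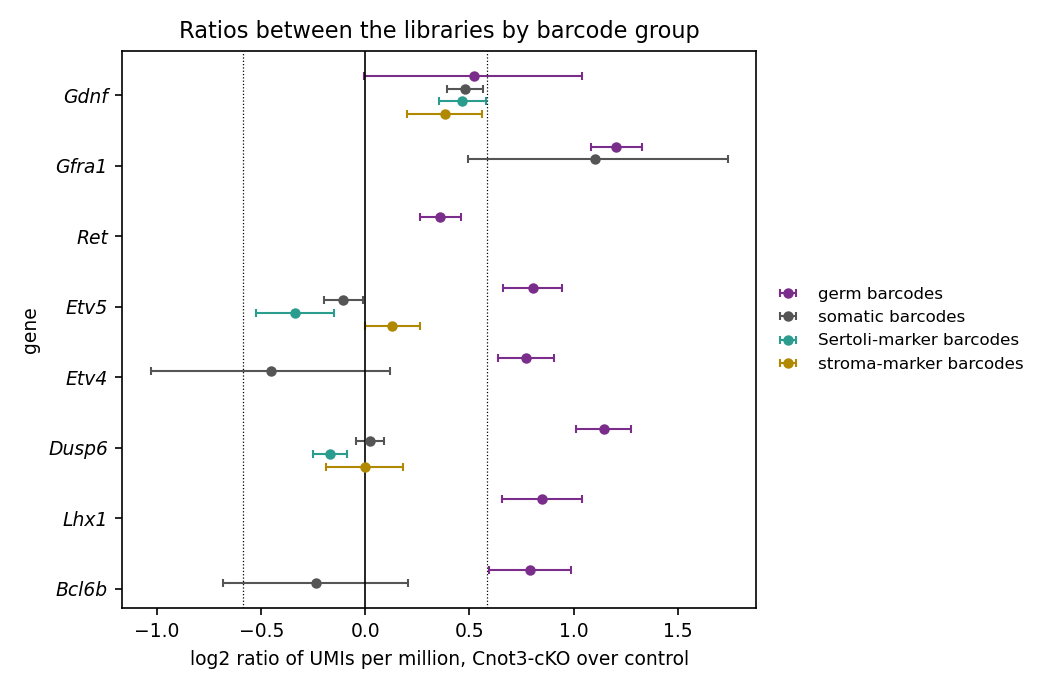
Log2 ratio of the level in *Cnot3*-cKO over control (horizontal axis) for each gene (vertical axis) in germ, somatic, Sertoli-marker and stroma-marker barcodes, for values with at least 100 UMIs; bars are 95% counting intervals and dotted lines mark 1.5-fold. The germ ratio of *Dusp6* is 1.14 while its Sertoli-marker ratio is -0.17. *Gdnf* lies between 0.38 and 0.52 in all 4 groups, but its germ interval runs from -0.01 to 1.04.

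The genes were next read together in single germ barcodes, all thinned to 10000 UMIs. Receptor genes went together. In control, 187 barcodes held *Gfra1* and 357 held *Ret*, and 107 held both, against 50.2 if the genes were spread independently. In *Cnot3*-cKO the numbers were 151, 175 and 87, against 47.3. Of barcodes with *Gfra1*, 57.2% in control and 57.6% in *Cnot3*-cKO also held *Ret*, and of barcodes without it 21.9% and 21.6% did. The shares with *Ret* on either side thus differed by less than 1 percentage point between the libraries, although *Gfra1* was seen in a larger share of *Cnot3*-cKO barcodes.

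All 21 pairs among the 7 genes other than *Gdnf* were seen together more often than under independence, in both libraries. The ratio of observed to expected barcodes ran from 1.66 to 6.11 in control, with a median of 2.75. In *Cnot3*-cKO it ran from 1.46 to 3.02, with a median of 1.84. This ratio cannot exceed 1 over the larger share of a pair, and the shares were higher in *Cnot3*-cKO. The libraries were therefore not compared by it. *Lhx1* with *Bcl6b* was the highest in both, seen together in 20 barcodes against 3.27 in control and in 15 against 4.96 in *Cnot3*-cKO. Targets were then read beside *Gfra1*. Of control barcodes with *Gfra1*, 39.0% held *Dusp6*, 37.97% *Etv5* and 16.0% *Lhx1*, against 9.01%, 8.66% and 2.45% of those without. In *Cnot3*-cKO the shares with *Gfra1* were 44.4%, 35.8% and 19.9%, and those without it 14.7%, 15.2% and 3.43%. Each target was thus seen more often beside *Gfra1* than without it in both libraries. These ratios describe barcodes of 1 library each, which share that library, and no test was made. How often other gene pairs were seen together more than under independence was not counted. The 21 pairs therefore cannot be called particular in this.

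**Figure D4:**
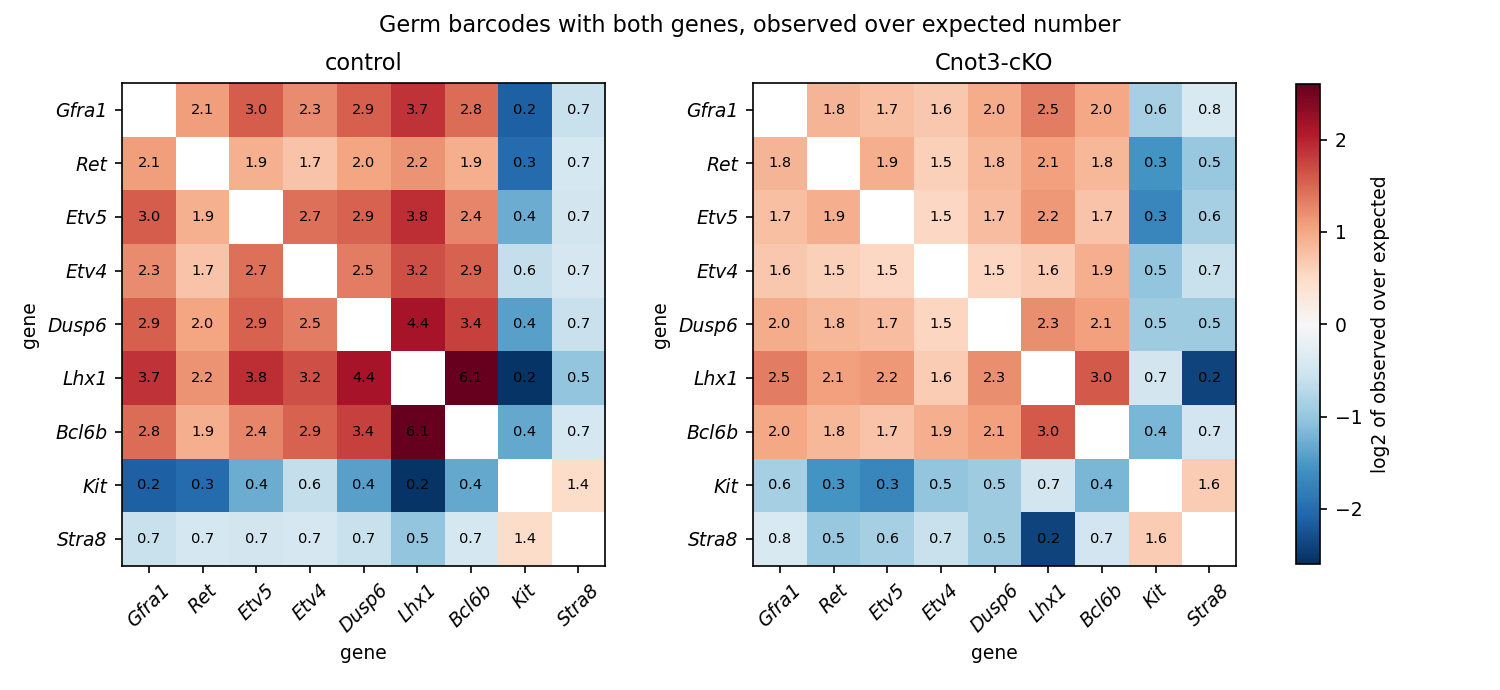
Number of germ barcodes with both genes of a pair divided by the number under independence (printed in each square; colour is its log2), after thinning to 10000 UMIs, for control (left) and *Cnot3*-cKO (right). The 21 pairs of pathway genes are all above 1, from 1.66 to 6.11 in control and 1.46 to 3.02 in *Cnot3*-cKO, and all pairs of these genes with *Kit* or *Stra8* are below 1.

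The number of these 7 genes seen in a barcode was higher in *Cnot3*-cKO. None was seen in 54.1% (51.3 to 56.8) of control and 40.6% (36.5 to 44.8) of *Cnot3*-cKO germ barcodes, and 5 or more in 2.78% (1.97 to 3.81) and 5.90% (4.10 to 8.19). The mean was 0.916 and 1.44 genes per barcode.

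*Kit*, the receptor of differentiating spermatogonia, and *Stra8*, which retinoic acid induces, mark cells that have left the stem cell state. Germ barcodes with no UMI of either after thinning made up 41.1% (38.5 to 43.8) of control and 53.1% (48.9 to 57.3) of *Cnot3*-cKO germ barcodes, 547 and 297. Such a barcode can still hold some at full depth, and need not be a cell without these genes. In control, 74.9% of germ barcodes held a *Stra8* UMI before thinning and 49.4% after it. Levels in the barcodes of this split were summed at full depth. *Gfra1* was rarely seen with *Kit*, in 13 control barcodes against 56.2 under independence and in 21 *Cnot3*-cKO barcodes against 38.1. Within each library the 7 genes other than *Gdnf* were higher in barcodes without *Kit* or *Stra8*. *Lhx1* was at 15.4 CPM without and 3.97 with them in control, and at 23.6 and 6.47 in *Cnot3*-cKO, log2 differences of 1.95 and 1.87.

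Levels were therefore compared within each kind. In barcodes without *Kit* or *Stra8* 6 genes were past 1.5-fold, where 7.1% of 11598 genes were higher by that much and 4.71% lower. In barcodes with them 6 of the 7 genes that reached 100 UMIs were past it, where 4.13% of 12038 genes were higher and 3.04% lower. Without *Kit* or *Stra8*, *Gfra1* was at 27.7 CPM (25.6 to 29.9) in control and 55.3 CPM (51.4 to 59.4) in *Cnot3*-cKO, a log2 ratio of 0.997. With them it was at 12.7 CPM (11.6 to 14.003) and 30.7 CPM (27.6 to 33.9), a ratio of 1.27. *Dusp6* had ratios of 0.92 and 1.12 in the same order, and *Ret* 0.17 and 0.28. The difference between the libraries was thus present on both sides of this split. The calls with *Kit* or *Stra8* depended on the cut. In barcodes with 2 or more UMIs of them, *Gfra1* had a ratio of 1.18 and *Dusp6* 1.26. There *Etv5* at 0.39 and *Bcl6b* at 0.48 fell short of 1.5-fold, and *Ret* was at 0.10 (-0.18 to 0.37). Leaving out barcodes with somatic markers lowered the count without *Kit* or *Stra8* from 6 to 3. Of the genes lost, *Etv4* went from a log2 ratio of 0.60 to 0.56 and *Bcl6b* from 0.60 to 0.58, both close to the limit, and *Lhx1* from 0.62 to 0.39. Under the filters the study states none of the 7 genes other than *Gdnf* was higher by 1.5-fold there, and *Gfra1* was at a log2 ratio of -0.41.

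**Figure D5:**
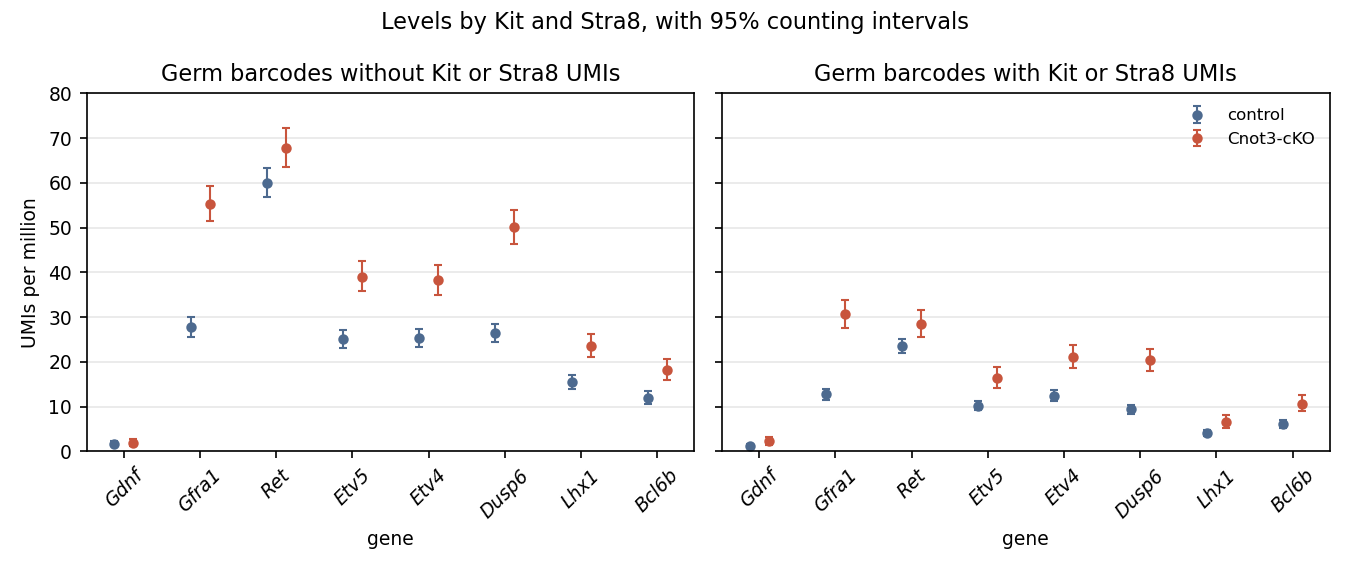
Levels of the 8 genes in UMIs per 1000000 in germ barcodes without (left) and with (right) UMIs of *Kit* or *Stra8* after thinning, for the control library in blue and the *Cnot3*-cKO library in red; bars are 95% counting intervals. *Gfra1* is at 27.7 and 55.3 on the left and at 12.7 and 30.7 on the right.

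Germ barcodes of the *Cnot3*-cKO library were also split by whether a *Cnot3* UMI was seen after thinning to 20000 UMIs. *Gfra1* was at 44.8 CPM (39.1 to 51.1) in the 249 barcodes without one and 42.3 CPM (36.98 to 48.2) in the 267 with one. In control the values were 19.3 CPM (16.1 to 22.96) and 19.4 CPM (17.4 to 21.5). *Dusp6* was at 37.7 and 31.5 CPM in *Cnot3*-cKO, again with overlapping intervals. The intervals of the other 6 genes overlapped too in *Cnot3*-cKO. In control *Bcl6b* was at 6.23 CPM (4.47 to 8.45) without a *Cnot3* UMI and 9.96 CPM (8.57 to 11.5) with one, which did not overlap. A barcode with no *Cnot3* UMI need not be a cell without the gene.

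By correlation of log counts over thinned germ barcodes, averaged over both libraries (1330 and 559 barcodes), the 5 genes of 9775 most like *Gfra1* were *Ret*, *Ccnd2*, *Nefm*, *Rasgrp2* and *Id4*, with mean r from 0.33 to 0.37. For *Ret* they were *Gfra1*, *Sdc4*, *Ccnd2*, *Fst* and *Rpl22l1*, and for *Etv5* *Ccnd2*, *Ret*, *Slc9a3r1*, *Gfra1* and *Foxc2*. *Dusp6* ranked 12 for *Gfra1*, 9 for *Ret* and 6 for *Etv5*. The values are weak, come from sparse counts and describe barcodes that share a library.

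The wider pathway was read from lists. Among the GDNF family ligands and receptors other than the 8 genes, 5 of 8 had at least 20 UMIs in each library in germ barcodes. At that limit 8.46% of 14271 genes were higher by 1.5-fold and 3.04% lower, the shares beside which the counts of the lists are to be read. Of the 5, none was higher by 1.5-fold and 1 was lower, *Gfra3*, the artemin co-receptor gene, at 5.19 and 2.98 CPM (log2 ratio -0.80). *Gfra4*, the persephin co-receptor gene, was at 10.4 and 13.6 CPM (0.38). No other receptor of the family that could be counted was higher by 1.5-fold.

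Of 29 adaptor and kinase genes below RET, 1 was higher by 1.5-fold, a smaller share than the 8.46% of all genes. Another 3 were lower, where 3.04% of all genes were, and the median log2 ratio was -0.15. The higher one was *Grb7*, an adaptor that binds active RET, at 7.38 and 16.8 CPM (1.18). The lower ones were *Akt1* at 45.4 and 27.0 CPM (-0.75), *Src* at 11.7 and 7.22 CPM (-0.70) and the adaptor gene *Grb10* at 17.3 and 10.8 CPM (-0.68). Below 0 lay 23 of the 29 ratios and above it 6.

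Of 10 other genes known to respond to GDNF in cultured spermatogonia, 8 had log2 ratios above 0 and 2 below, with a median of 0.54. The 2 lower ratios, -0.15 and -0.18, had intervals wholly below 0. None was lower by 1.5-fold, and 4 were higher by that much, against 8.46% of all genes. They were *T*, the brachyury gene, at 0.348 and 1.45 CPM from 20 and 38 UMIs (2.06), the chemokine receptor gene *Cxcr4* at 3.59 and 9.66 CPM (1.43), the stem cell marker *Id4* at 32.4 and 76.9 CPM (1.25), and *Egr2*, an early response gene named after its values were seen, at 6.27 and 9.97 CPM (0.67). Of 10 other ERK feedback and ETS genes, 2 were higher, also against 8.46%, *Spred3* at 0.470 and 1.03 CPM from 27 UMIs in each library (1.13) and *Spry4* at 4.13 and 8.67 CPM (1.07), both inhibitors of the pathway from receptors to ERK, and none was lower. The median of these 10 was 0.05, close to that of all genes.

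The FGF receptors, which reach the same kinases, did not follow *Gfra1*. Of the 3 counted, none was higher by 1.5-fold and 1 was lower. *Fgfr1* was lower, at 25.5 and 9.36 CPM in germ barcodes (log2 ratio -1.45, -1.65 to -1.25) and also at 61.5 and 25.8 CPM in somatic barcodes (-1.25), where Cre is not driven. *Fgfr2* and *Fgfr3* had germ ratios of -0.52 and -0.22.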

How the data were processed

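The authors deposited unnormalised UMI counts for every gene and barcode, produced with Cell Ranger 3.0.1 on mm10, per the submitters' processing notes (strand settings not given in the sources used here), from 10x Chromium 3′ kit v3.1 libraries. Both samples of a genotype were merged in 1 matrix with no map from barcodes to samples. The labels end the 4-hydroxytamoxifen injections, begun at postnatal day 1, on days 1 and 2 for the control samples and 3 and 4 for the *Cnot3*-cKO samples. The study's methods instead describe 1 schedule for all neonatal mice, daily from day 1 to day 3. Which of them holds could not be checked here. If the labels hold, injection length and genotype cannot be told apart.

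Cells were called with the order-of-magnitude rule (3000 expected cells, the 99th percentile of the top barcodes over 10), giving thresholds of 7976.8 and 7664.4 UMIs. All called barcodes entered. The study's filters (at most 10% mitochondrial UMIs, then UMIs and genes within 2 SD of the mean) served as an alternative. No doublet caller was run, and germ barcodes with over 0.1% somatic marker UMIs were left out in an alternative. UMIs were summed per barcode group and given per 1000000 (CPM) with exact Poisson intervals. Ratios had exact conditional intervals and shares Clopper-Pearson intervals, at 95%. Shares were also computed after thinning each barcode to 10000 UMIs, which left out 20 control and 5 *Cnot3*-cKO germ barcodes. Genes that reached 100 UMIs in both libraries together formed the background. Pathway lists used genes with at least 20 UMIs in each library, of which up to 4 with the largest ratio were named. Members, lists and groups were chosen with earlier results of these data known. Positions came from the GENCODE annotation of GRCm38, and promoters from RefSeq on GRCm38.p6.

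In simulated data for all genes in germ barcodes (13350 genes, 200 of them changed 2-fold), 95.2% of intervals held the true ratio, and the median estimates were 0.99 and -1.00 on the log2 scale. The simulated sums were Poisson draws, the kind of count the intervals assume. This checks the calculation only, and not how the intervals do where UMIs cluster in few barcodes. Python 3.11.15, numpy 2.4.6, scipy 1.17.1, pandas 2.3.3 and matplotlib 3.10.9 were used. In all, 35 alternative settings and 5 more chosen after seeing the data were tried.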

Additional observations from a re-analysis of the deposited data

Results flagged for a closer look

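In empty barcodes, outside the germ and somatic groups, 4 of the genes differed between the libraries with intervals above 0. On the log2 scale *Cnot3*-cKO over control stood at 1.07 for *Gdnf* (64 and 141 UMIs), 1.26 for *Gfra1* (23 and 58 UMIs), 0.80 for *Dusp6* (144 and 264 UMIs) and 0.98 for *Bcl6b* (interval from 0.01 to 2.01). Subtracting the empty-barcode profile left 6 genes past 1.5-fold in germ barcodes.

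*Etv5* and *Dusp6* had ratios below 0 in some somatic groups and above 0 in germ barcodes. The log2 ratio of *Etv5* was -0.11 in somatic barcodes and -0.34 in Sertoli-marker barcodes, and that of *Dusp6* was -0.17 in Sertoli-marker barcodes. With 1 library per genotype, the difference between germ and somatic ratios was not tested.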

How the results depend on the processing

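No paired analysis was possible because both samples of a genotype are merged in 1 matrix, and for the same reason no replicate could be left out. Of 96 germ ratios of single genes under the alternatives, 84 stayed within counting error of the reported value, 10 moved beyond it and 2 reversed. The filters the study states, which left 236 and 65 germ barcodes, gave 1 gene past 1.5-fold in place of 6, which was *Gdnf* on 15 UMIs in all, so none of the 6 genes with 100 or more UMIs, with log2 ratios of -0.14 for *Lhx1* and -0.54 for *Bcl6b*. Under them thinned shares gave 1 gene in place of 7, *Gdnf* being counted in both although it rests in the reported setting on 9 barcodes per library, with *Gfra1* at -0.10. Germ barcodes without *Kit* or *Stra8* gave 1 (*Gdnf*) in place of 6, with *Gfra1* at -0.41, *Etv5* at -0.66, *Etv4* at -0.086, *Dusp6* at -0.071, *Lhx1* at -0.94 and *Bcl6b* at -1.24, and those with them had *Etv4* at -0.16 and *Bcl6b* at -0.41. Somatic barcodes gave 0 genes in place of 1 under these filters and also with at most 10% mitochondrial UMIs, since *Gfra1* there had under 100 UMIs, although its ratio stayed between 1.14 and 1.19. At most 10% mitochondrial UMIs gave 3 genes by thinned share (*Gfra1*, *Etv4* and *Bcl6b*). Leaving out germ barcodes with somatic markers, an alternative added after seeing the data, gave 3 in place of 6 without *Kit* or *Stra8*, where *Etv4* at 0.56 and *Bcl6b* at 0.58 lay just under 1.5-fold and *Lhx1* was at 0.39. The causes of the other changes were not tested. The background share of genes higher by 1.5-fold was 10.5% with genes of 20 or more UMIs and 3.44% with 500 or more, and of genes lower 5.15% and 2.07%. All 21 pairs stayed above independence except under the study's filters in *Cnot3*-cKO, with 19. The depth limits *Gdnf* in germ barcodes and *Lhx1* and *Ret* outside them.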
